A study of Homo sapiens with 6 samples.

Results

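The 10 genes described here make the RNA cap or read it: RNGTT, RNMT and TGS1 build it, NCBP1, NCBP2, EIF4E, EIF4E2 and EIF4E3 bind it, and PHAX and SNUPN carry capped small nuclear RNA out of and back into the nucleus. They were chosen by name, as gene names in the array files, out of 36328 gene names measured, and 19 probes read them. All arrays came from MOLT-4, an established T-cell leukaemia line. By vector, 3 of the 6 samples are labelled mock and 3 Nudt16, the latter overexpressing NUDT16, an enzyme that removes RNA caps. For every sample 20 μg of total RNA went into a cap immunoprecipitation, which recovers RNA with an m7G cap or the m3G (trimethylguanosine) cap, and the eluate was hybridised in 1 colour to an Agilent expression array. The labels do not say whether NUDT16 was expressed transiently or stably, or whether replicates were separate transfections, so spread between replicates may be technical.

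As background, the cap is built on the first nucleotide of a nascent RNA polymerase II transcript. RNGTT removes a phosphate and attaches a guanosine, and RNMT methylates that guanosine at the N7 position. In the nucleus the cap is held by the NCBP1 and NCBP2 pair, and in the cytoplasm by EIF4E, which starts translation and is known to be raised in many cancers. Small nuclear RNAs leave the nucleus through PHAX, are hypermethylated by TGS1 to the m3G form, and return bound to SNUPN. The measurements below are of the mRNAs of these genes in the eluate, not of the proteins or of their activity.

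The probes are 60-base oligonucleotides, each on 1 spot, and several genes have more than 1. Because probes of one gene behaved differently, the sequences of the pairs that differed most, of an EIF4E2 pair that differed less, and of the PHAX probe are shown, 5′ to 3′ as the array files give them. Coordinates are on hg19, and the strand follows the order in which those files write them. Exon and untranslated-region positions are not given, since no annotation of that build was read. The RNMT probe A_23_P55515 covers 3627 bases of genome with 60 bases of probe, so it crosses a splice junction. Where a probe held the polyadenylation hexamer AATAAA or ATTAAA, only the stretch around it is printed, with the hexamer in capitals.
RNMT A_23_P55515 (chr18:13742604-13746230, plus strand): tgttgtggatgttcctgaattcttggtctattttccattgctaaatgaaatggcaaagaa
RNMT A_24_P48408 (chr18:13764222-13764281, plus strand), stretch: aactttttATTAAAgtgtaactatag
NCBP1 A_33_P3261197 (chr9:100410445-100410504, plus strand): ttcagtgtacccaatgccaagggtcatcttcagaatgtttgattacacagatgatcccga
NCBP1 A_33_P3299854 (chr9:100435948-100436007, plus strand), stretch: atcataccttgcAATAAAtattctgttaaa
EIF4E A_24_P349560 (chr4:99806144-99806203, minus strand): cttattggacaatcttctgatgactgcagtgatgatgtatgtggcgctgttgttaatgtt
EIF4E A_23_P118643 (chr4:99801521-99801580, minus strand), stretch: acacaaaggtggAATAAAcattaattttgt
EIF4E2 A_33_P3308050 (chr2:233431864-233431923, plus strand): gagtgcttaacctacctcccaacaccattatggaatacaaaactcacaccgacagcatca
EIF4E2 A_23_P165722 (chr2:233433793-233433852, plus strand): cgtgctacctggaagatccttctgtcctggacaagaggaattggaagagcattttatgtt
PHAX A_23_P213908 (chr5:125960463-125960522, plus strand): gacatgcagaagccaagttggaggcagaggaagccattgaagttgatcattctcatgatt

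The hexamer, AATAAA or ATTAAA counted once per probe, was present on the printed strand of 4 of 18 member probes searched, against 11.2% of all 50599 probes of this length. On the complementary strand it was present in 1 of the 18, against 6.19% of all. In RNMT and NCBP1 the downstream probe held it and the upstream probe did not, in EIF4E it was held by the middle one of 3 probes, and in EIF4E2 by A_33_P3308055. The match is a description of the letters only.

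The arrays differed in how much they saw. Between 39.3% and 52.0% of 58717 spots were well above background on 5 of the arrays, and 14.6% on NUDT16 replicate 2. Arrays were therefore scaled on the 75th percentile of the 6582 probes well above background everywhere, and all signals below are log2 values relative to it. On this scale the lowest signal well above background was -3.52 on NUDT16 replicate 2 and between -8.07 and -7.05 on the other arrays. Mock and NUDT16 arrays of the same number shared a slide and a scan and varied together, so differences within these pairs are given beside the group means. The 2 NUDT16 probes were well above background on none of the arrays and did not check the labels. Of 12 T-lineage markers, 7 were well above background on all arrays and each of the 12 on at least 4, while no array showed the B-cell genes MS4A1, CD22 and PAX5, the myeloid genes CSF1R, ITGAM and MPO, or HBB, EPCAM, COL1A1 and COL1A2. Markers of other lineages that were seen included CD79A, KRT8 and VIM on 6 arrays, KLF1 and KRT18 on 5, CD14 on 4 and HBA2 on 1, and their part in the results was not tested.

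Transcripts of 9 of the 10 genes were measured in the mock eluates, EIF4E3 being the exception. Of the 19 probes, 15 were well above background on all 3 mock arrays and could be tested. These were all the probes of RNMT, TGS1, NCBP2, EIF4E, SNUPN and PHAX, with 1 of 2 for RNGTT, 2 of 3 for NCBP1 and 3 of 4 for EIF4E2. Only 4 probes were well above background on all 6 arrays, for EIF4E, EIF4E2 (2 probes) and PHAX. On NUDT16 replicate 2, 11 of the 15 tested probes (73.3%) were not, against 62.5% of all 17765 probes tested. For 7 of these 11 the partner signal on mock replicate 2 was itself under -3.52, so no bound on a loss can be given there.

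In the main fit, which leaves out the pairing, no cap synthesis or cap-binding gene differed between NUDT16 and mock eluates beyond the spread between arrays. In limma with Benjamini-Hochberg adjustment over all 17765 probes, 0 of 15 member probes were called (every adjusted p 0.999), against 0.00563% of all probes. At an unadjusted p under 0.05 there were also 0, but in this fit only 8 of all 17765 probes reached that level. The only probe called anywhere belonged to the NUDT16 pseudogene NUDT16P1 (A_21_P0012400, limma adjusted p 0.00155), which was well above background on all 3 NUDT16 arrays and 0 mock arrays. Groups overlapped for every one of the 15 member probes, while groups without overlap made up 0.281% of all probes with NUDT16 lower and 0.31% with NUDT16 higher. Standard errors of the member differences lay between 0.57 and 1.17 on the log2 scale. With a replicate block, which pairs same-numbered arrays, they lay between 0.32 and 0.88. In a bulk eluate, fewer cells with an RNA, less of it per cell and less of it capped cannot be told apart.

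The estimates nevertheless leaned to one side. Of the 15 probes, 14 had a lower mean in NUDT16 arrays, with a median log2 difference of -0.47, against 56.8% of all probes and a median of -0.11. However, 11 of the 15 were dim on NUDT16 replicate 2 and passed the filter through the mock arrays alone, as did 62.5% of all probes. For such probes the filter was not neutral between the groups, so the lean is a description only. The lean was uneven over the pairs: 13 of 15 were lower in pair 1 (72.1% of all probes) and 12 in pair 2 (47.0% of all), but 9 in pair 3 (55.6% of all). For 7 of the 15, mock replicate 2 was under -3.52 and NUDT16 replicate 2 not well above background. Their direction in pair 2 cannot be read. Probes lower in all 3 pairs numbered 5 of 15, near the 27.5% seen over all probes. RNGTT, with such a pair 2, is among them. Without NUDT16 replicate 2 the member median was -0.19, which is -0.04 from that of all probes. With normexp background correction 6 of 15 were lower and the member median was 0.28, while 18.6% of all probes were lower and their median was 0.47.

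**Figure D1:**
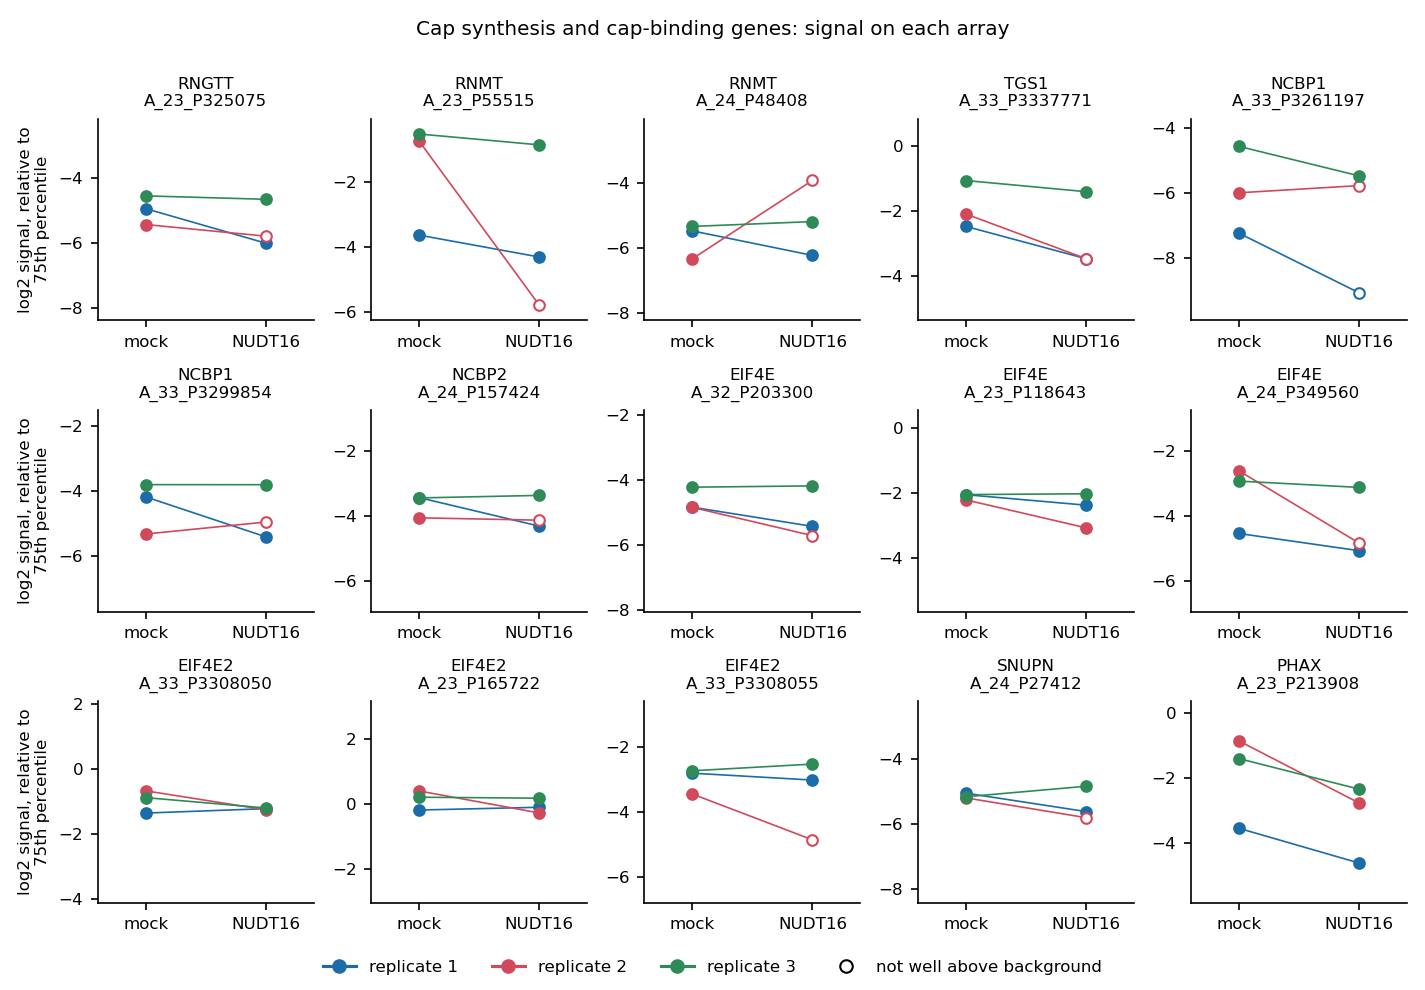
Signal of the 15 tested probes on each array, as log2 relative to the 75th percentile of the array (vertical axis, spanning the same range in every panel), for mock and NUDT16; lines join the arrays of one replicate number and open circles mark arrays where the probe was not well above background. The groups overlap in every panel, and RNMT A_23_P55515 and PHAX show the low signals of both replicate 1 arrays.

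Of the genes that build the cap, RNMT had the largest difference and the widest spread. The RNMT probe A_23_P55515 read -3.63, -0.74 and -0.52 on mock replicates 1, 2 and 3. On NUDT16 replicates it read -4.30, -5.78 and -0.86. It was therefore high on 3 arrays (mock 2, mock 3 and NUDT16 3), low on both arrays of replicate 1, and not well above background on NUDT16 replicate 2. The difference of means was -2.02 (SE 1.17, limma adjusted p 0.999). Within the pairs it was -0.67, -5.04 and -0.33, so replicate 2 decided its size. Without that NUDT16 array it was -0.95, and in the fit on pairs 1 and 3 alone it was -0.50.

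The replicate 2 pair of RNMT is a bound, since its NUDT16 signal lay at background. Bounds take the higher of the probe's own signal on that array and -3.52, the lowest signal there that was well above background. With -3.52, A_23_P55515 was at least 6.86-fold lower than on mock replicate 2. A bound this large or larger was seen for 0.09% of the 11108 probes that were dim on that array. Most of those could give no bound on a loss: 15% had one of 0.08 or more on the log2 scale, and 26.1% one of -0.53 or more. The RNMT bound was also the largest among the 11 dim member probes. The other RNMT probe, A_24_P48408, read -6.32 on mock replicate 2, under the median background level of -5.74 on NUDT16 replicate 2, so that array could only read higher. Its signal there was -3.91, not well above background. It read -5.46 and -5.32 on the other mock arrays and -6.22 and -5.18 on the other NUDT16 arrays (difference 0.60, SE 0.70, limma adjusted p 0.999). In pairs 1 and 3 alone it was at -0.30, and the mean of both RNMT probes over all arrays gave -0.71.

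TGS1, which converts m7G caps of small nuclear RNA to the m3G form, has 1 probe (A_33_P3337771, chr8:56737858-56737917). Mock signals were -2.46, -2.08 and -1.06, and NUDT16 signals -3.46, -3.45 and -1.40. Every NUDT16 array lay under its partner (log2 differences -0.99, -1.37 and -0.34), yet NUDT16 replicate 3 was above mock replicates 1 and 2. The group difference was -0.90 (SE 0.73, limma adjusted p 0.999). The signal on NUDT16 replicate 2 was not well above background, and lay above -3.52, so the bound of at least 2.59-fold lower within that pair is its observed difference. With the replicate block the SE was 0.34 and limma's unadjusted p 0.0344, with an adjusted p of 0.467.

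RNGTT, the capping enzyme itself, was read by A_23_P325075 (chr6:89320290-89320349). Its signals were -4.94, -5.43 and -4.55 in mock and -6.00, -5.79 and -4.65 in NUDT16 arrays, the middle NUDT16 value being at background. The pair differences were -1.06, -0.36 and -0.11. In pair 2 the mock signal was itself under -3.52, so no loss can be read there. The group difference was -0.51 (SE 0.63, limma adjusted p 0.999). It was -1.56 with quantile normalization, -1.27 with the authors' deposited table, and between -0.92 (without NUDT16 replicate 3) and -0.25 (without NUDT16 replicate 1) when 1 array was left out. A second RNGTT probe, A_33_P3212037 at chr6:89388001-89388060, was designed on an Ensembl transcript. It was well above background on mock replicates 1 and 3 and NUDT16 replicate 3 only, and was not tested.

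The main probes of the nuclear cap-binding complex were lower in pair 1 and near 0 in pair 3. NCBP2, the subunit that contacts the cap (A_24_P157424, chr3:196662464-196662523), read -3.43, -4.06 and -3.44 in mock and -4.31, -4.13 and -3.37 in NUDT16 arrays. Its pair differences were -0.88, -0.07 and 0.08. NCBP1, the large subunit that holds NCBP2, was brightest with A_33_P3299854, at -4.19, -5.33 and -3.81 in mock and -5.42, -4.96 and -3.81 in NUDT16 arrays. For both probes mock replicate 2 was under -3.52 and NUDT16 replicate 2 not well above background, so their pair 2 cannot be read. The differences were -0.29 for both genes (SE 0.60 for NCBP2 and 0.68 for NCBP1, limma adjusted p 0.999). For NCBP1 the sign depended on single arrays: without NUDT16 replicate 1 it was 0.06 and without mock replicate 3 it was 0.03.

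The upstream NCBP1 probe, A_33_P3261197, varied more. It read -7.23, -5.99 and -4.56 in mock arrays and -9.06, -5.76 and -5.46 in NUDT16 arrays, and of the NUDT16 values only that of replicate 3 was well above background. Its difference was -0.84 (SE 0.98, limma adjusted p 0.999), with pairs at -1.83, 0.22 and -0.91. Another NCBP1 probe, on an Ensembl transcript, A_33_P3261192, was well above background on none of the arrays.

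EIF4E, the cap-binding subunit of the eIF4F complex, had near-equal mock signals with its main probe. A_23_P118643 was well above background on all 6 arrays, with -2.05, -2.21 and -2.05 in mock (SD 0.09, n = 3). NUDT16 signals were -2.38, -3.07 and -2.03 (SD 0.53, n = 3). NUDT16 replicate 2 was the lowest of the 6 arrays and NUDT16 replicate 3 the highest. The difference was -0.39 (SE 0.59, limma adjusted p 0.999), and -0.10 without NUDT16 replicate 2. The farthest downstream probe, A_32_P203300 (chr4:99800575-99800634), gave -0.47 (SE 0.63), and the farthest upstream probe, A_24_P349560, gave -0.98 (SE 0.75). Neither was well above background on NUDT16 replicate 2. In pairs 1 and 3 alone A_32_P203300 gave -0.28, A_24_P349560 -0.36 and the main probe -0.15. The array files assign A_24_P349560 to EIF4E, but its match to the gene was not checked, so its values may not be those of EIF4E.

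EIF4E2 binds the cap without recruiting eIF4G and is known as a translational repressor. Among the 15 tested probes, its main probe and the one upstream of it varied least across the arrays. The main probe A_23_P165722 read -0.19, 0.40 and 0.20 in mock and -0.10, -0.28 and 0.17 in NUDT16 arrays. The upstream A_33_P3308050 read -1.35, -0.67 and -0.88 in mock and -1.22, -1.25 and -1.20 in NUDT16 arrays. Both probes spanned 0.68 from the lowest array to the highest, the narrowest ranges among the 15. The differences were -0.21 and -0.26 (SE 0.57 for each, limma adjusted p 0.999), and 0.03 for the main probe in pairs 1 and 3 alone. A probe designed on another transcript record, A_33_P3308055 (chr2:233448276-233448335), gave -0.47 with NUDT16 replicate 2 not well above background. That probe spanned 2.33 over the arrays. One more such probe, A_33_P3308045, was well above background on none of the arrays.

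EIF4E3, the remaining family member, has a single probe (A_24_P943113, chr3:71732169-71732228). It was well above background on mock replicate 3 only, so no difference is given. Signals were -10.21, -8.45 and -7.31 in mock and -9.78, -5.66 and -8.09 in NUDT16 arrays. The values on mock replicate 1 and on NUDT16 replicates 1 and 2 are surrogates put in for spots at background. That of NUDT16 replicate 2 stands higher than the rest because the background of that array lies higher on this scale.

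PHAX, the adaptor that links the cap-bound small nuclear RNA to the exporter XPO1, had a lower NUDT16 signal in each pair and was detected throughout. Its probe A_23_P213908 was well above background on all 6 arrays and read -3.55, -0.86 and -1.40 in mock and -4.61, -2.77 and -2.35 in NUDT16 arrays. The pair differences were -1.07, -1.91 and -0.94, but mock replicate 1 lay under NUDT16 replicates 2 and 3, so the groups overlapped. The mock mean was -1.94 ± 1.42 (SD, n = 3) and the NUDT16 mean -3.24 ± 1.21 (SD, n = 3). The difference was -1.30 (SE 0.84, limma adjusted p 0.999).

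In the fit with a replicate block, PHAX had an SE of 0.34 and limma's unadjusted p was 0.00703, but the adjusted p was 0.467. Of the 15 probes, 2 (PHAX and TGS1) had an unadjusted p under 0.05 in that fit, both lower, against 8.94% of all probes lower at that level. The block called 0 of 15, and 0.00563% of all probes. The fit on pairs 1 and 3 alone called PHAX (limma adjusted p 0.0328) and the upstream NCBP1 probe (-1.37, limma adjusted p 0.00133), 2 of 15 against 3.45% of all probes. That fit has 1 residual degree of freedom, and limma gave every probe the same SE of 0.30. One of the 4 NCBP1 signals in it, on NUDT16 replicate 1, was not well above background.

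SNUPN, which binds the m3G cap and brings assembled small nuclear ribonucleoproteins back into the nucleus, showed the smallest spread in mock. Its probe A_24_P27412 (chr15:75899584-75899643) read -5.05, -5.20 and -5.17 in mock and -5.62, -5.81 and -4.84 in NUDT16 arrays. Pair 3 was at 0.32 and pair 1 at -0.57, and the value on NUDT16 replicate 2 was at background. The difference was -0.28 (SE 0.58, limma adjusted p 0.999). Quantile normalization gave -1.35 and the authors' deposited table -1.13. Leaving out 1 array gave between -0.57 (NUDT16 replicate 3) and -0.09 (NUDT16 replicate 2).

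**Figure D2:**
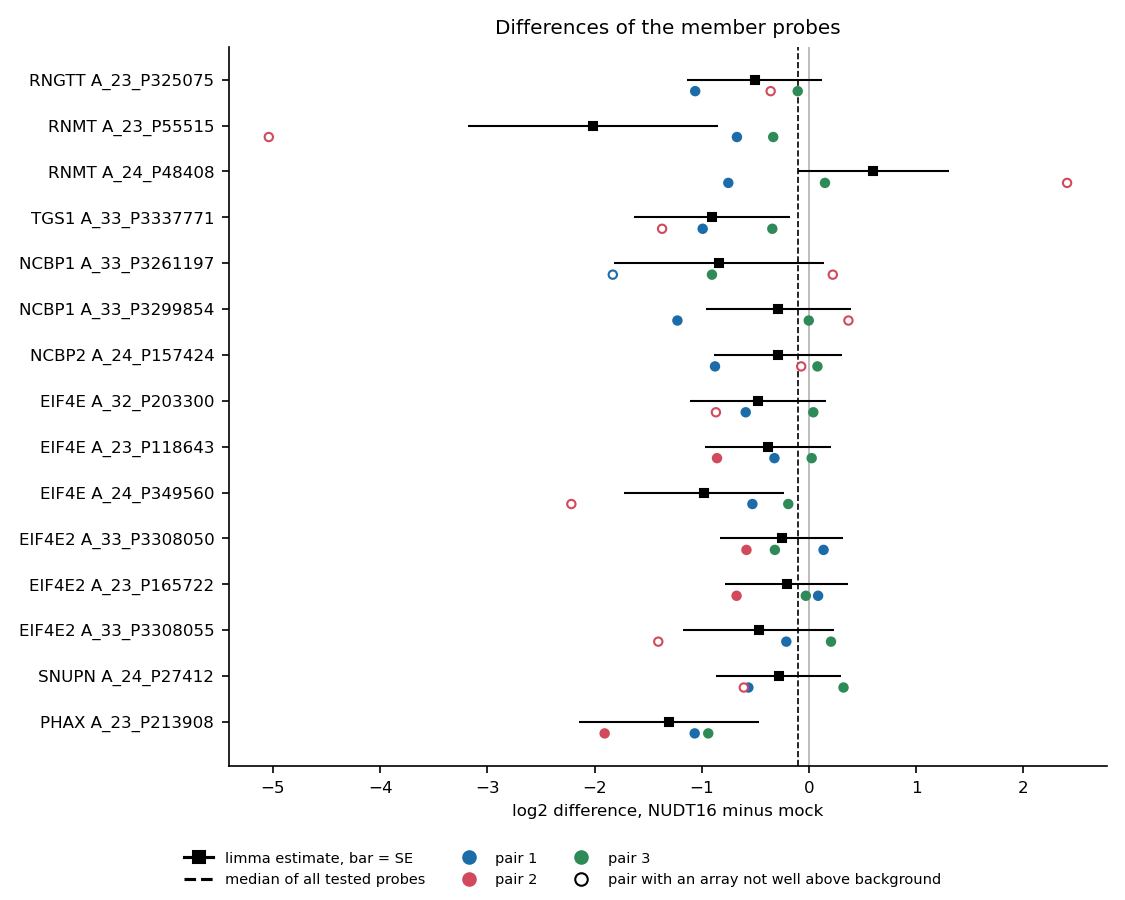
Log2 difference, NUDT16 minus mock, for the 15 tested probes: squares with bars are limma estimates ± SE, circles are the 3 same-numbered pairs (open where an array was not well above background), and the dashed line is the median of all tested probes. PHAX, TGS1, RNGTT, the RNMT probe A_23_P55515 and the EIF4E probe A_24_P349560 have all 3 pairs below 0. For RNGTT no loss can be read in pair 2, where its NUDT16 signal lay at background.

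Replicate 1 arrays differed from the others, and for some members by probe position. On mock replicate 1 the upstream RNMT probe differed from the mean of mock replicates 2 and 3 by -2.998 on the log2 scale, and the downstream RNMT probe, 21618 bases away in the genome, by 0.36. NCBP1 behaved alike, with -1.95 upstream and 0.38 downstream over 25503 bases. For EIF4E the values were -1.77 upstream, from the probe whose match was not checked, and -0.30 at the farthest downstream probe, 5569 bases away. The EIF4E2 probes on RefSeq mRNA, 1929 bases apart, gave -0.58 and -0.49, but A_33_P3308055, farther downstream on another transcript record, gave 0.28.

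The NUDT16 arrays gave the same order between replicates 1 and 3 for RNMT, at -3.45 upstream and -1.04 downstream. NCBP1 gave -3.59 and -1.60, where the upstream value on replicate 1 was not well above background. EIF4E gave -1.94 and -1.25, and EIF4E2 gave -0.02 and -0.28. PHAX, with 1 probe, was at -2.41 for mock replicate 1 and -2.27 for NUDT16 replicate 1 in the same comparisons.

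The same order was common over the array. Among 2331 genes with at least 2 tested probes on RefSeq mRNAs, the upstream probe stood lower than the downstream one on mock replicate 1, against mock replicates 2 and 3, in 76.6%, with a median of -0.76. On the NUDT16 arrays the share was 69.6% and the median -0.44. All 4 member genes were lower upstream in mock and 3 of 4 in NUDT16 arrays, with medians of -1.90 and -1.34. The difference between vectors was also lower for the upstream probe in all 4 genes, as in 62.9% of the 2331. The comparison of positions was chosen after the values were seen and was not tested, and neither was its part in the vector differences.

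**Figure D3:**
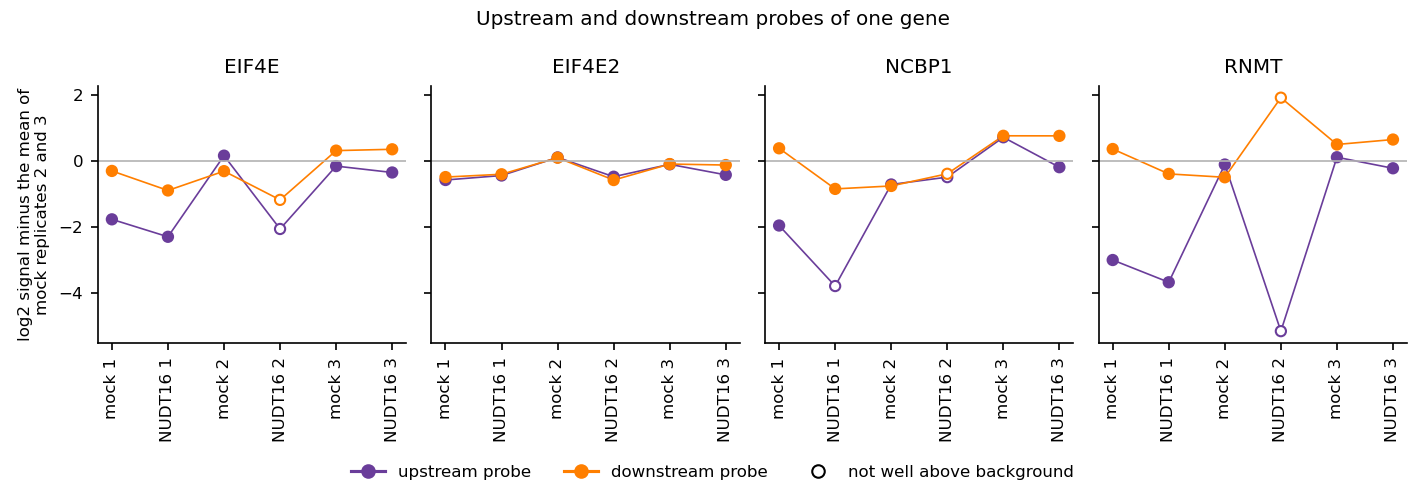
Log2 signal of the upstream and the downstream probe of EIF4E, EIF4E2, NCBP1 and RNMT on the 6 arrays, each minus the mean of mock replicates 2 and 3 of the same probe; open circles were not well above background. The upstream probes of RNMT, NCBP1 and EIF4E dip on both replicate 1 arrays, while the EIF4E2 probes plotted, both on RefSeq mRNA, run closer together; A_33_P3308055 is not plotted.

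Other genes of the cap pathway, listed by function, likewise showed no call. Of 32 genes, 30 had a probe and 28 a tested one, and 0 of 28 were called in limma, with 0 at an unadjusted p under 0.05. Only 8 of all 17765 probes reached that level in this fit. Of the 28 genes, 20 were lower in NUDT16 arrays, with a median of -0.37, against 56.8% of all probes and a median of -0.11. On NUDT16 replicate 2, 11 of the 28 were not well above background, so they passed the filter through the mock arrays alone. In pairs 1 and 3 alone the median was -0.19 with 71.4% lower, near the -0.22 and 69% of all probes. The transport receptors for capped small nuclear RNA, listed with RAN (-0.29), had the lowest median of the roles, -0.99 over 3 genes. That median is the value of XPO1, whose NUDT16 replicate 2 signal was not well above background. In pairs 1 and 3 alone the median of this role was -0.23 and not the lowest. It was -0.31 for eIF4F subunits and cofactors and -0.32 for other cap-binding proteins. KPNB1, the importin that carries SNUPN cargo, was at -1.42 (SE 0.83) with pairs at -1.29, -2.63 and -0.34, and XPO1, the exporter that PHAX binds, at -0.99 (SE 0.76) with pairs at -0.48, -2.53 and 0.03. With the replicate block KPNB1 was the only one of the 28 with an unadjusted p under 0.05 (limma p 0.0201, adjusted p 0.467). Of all probes, 8.94% were lower at that level in that fit.

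Among cap methylation genes, 2 of 4 were lower. RAMAC, the activating subunit of RNMT, was at -1.14 (SE 0.69), with pairs at -0.62, -2.70 and -0.09. Its NUDT16 replicate 2 signal was not well above background, and pairs 1 and 3 alone gave -0.35. PCIF1, which methylates a cap-adjacent adenosine, went the other way at 0.69 (SE 0.62), higher in 3 of 3 pairs by 0.51, 1.25 and 0.32. Partners of the nuclear cap-binding complex were lower in 3 of 5, led by ZC3H18 at -0.59 (SE 0.70) and NCBP3 at -0.57 (SE 0.69). For both, NUDT16 replicate 2 was not well above background and mock replicate 2 was under -3.52, so pair 2 cannot be read. Pairs 1 and 3 alone gave -0.18 for ZC3H18 and -0.63 for NCBP3.

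Of the eIF4F subunits and cofactors 5 of 6 were lower, with a median of -0.62. EIF4A2, a helicase subunit, was at -0.88 (SE 0.63) and EIF4B, its cofactor, at -0.85 (SE 0.77), while pair 3 was near 0 for both, at 0.07 and -0.13. The eIF4E-binding proteins split 3 against 3, with a median of 0.00. GIGYF2, which pairs with EIF4E2, was at -0.60 (SE 0.64) and the translational inhibitor EIF4EBP1 at 0.57 (SE 0.71). Other cap-binding proteins were lower in 4 of 4. IFIT1, an interferon-induced sensor of foreign RNA ends, was at -1.05 (SE 0.70), with NUDT16 replicate 2 not well above background. In pairs 1 and 3 alone IFIT1 was at -0.44. GEMIN5, a subunit of the SMN complex, was at -0.65 (SE 0.74). Every limma adjusted p of the main fit in this list was 0.999.

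**Figure D4:**
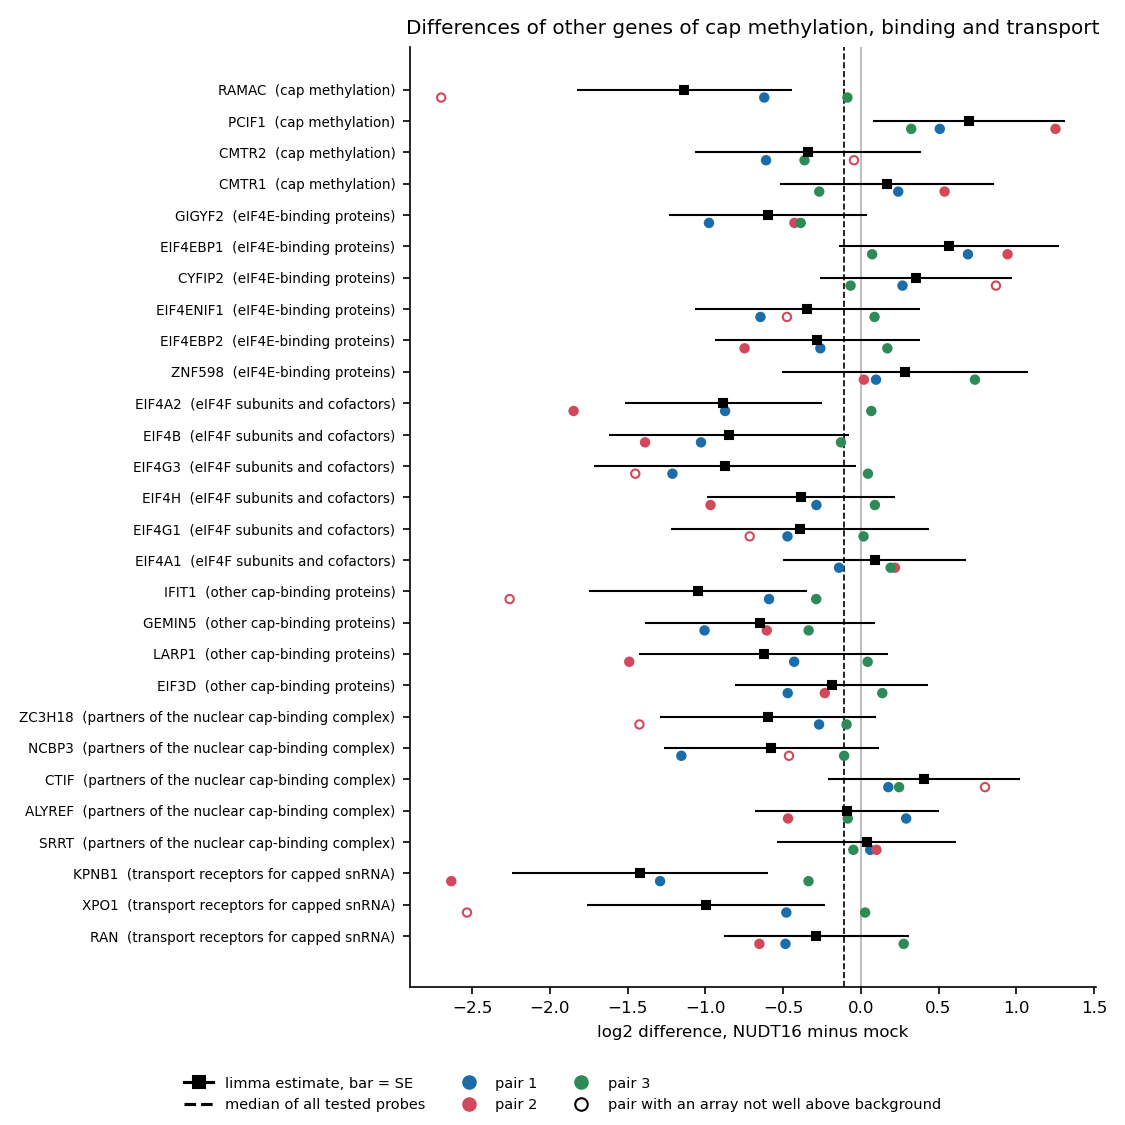
Log2 difference, NUDT16 minus mock, for 28 other genes of cap methylation, cap binding and transport, 1 probe each, with the same symbols as for the members. Estimates run from -1.42 (KPNB1) to 0.69 (PCIF1), and pair 2 holds most of the far-left points. Among these, the points of RAMAC, XPO1 and IFIT1 are open.

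A mean course was taken over the members seen on all arrays, in which PHAX had the widest range (3.75, against 1.04 for EIF4E and 0.68 for EIF4E2). The mean of EIF4E, EIF4E2 and PHAX, each centred on its own mean, was 0.73 and 0.53 on mock replicates 2 and 3, 0.22 on NUDT16 replicate 3, and between -0.75 and -0.31 on the other 3 arrays. The genes most like it over the 6 arrays were CCDC96 (Pearson's r 0.998), C1orf50 (r 0.998) and HNRNPH3 (r 0.997), given as a description. Of 6578 other probes well above background on all arrays, 629 had r over 0.9, and the median r was -0.13. The arrays share slides in pairs and differ in detection.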

How the data were processed

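Gene names were matched exactly to the 10 members, and the members and lists were chosen with earlier results of these data known. Per the file headers, the authors scanned Agilent design 039494 and read it with Feature Extraction 10.7.3.1. The deposited intensity is background subtracted and detrended within each array, with surrogates for spots at background, which narrow the range of dim signals. Log2 values deposited by the authors in a separate table, their making not given in the sources used here, served as an alternative. Control and outlier spots were left out and spots of a probe averaged (13 of 50599 probes had no usable spot on some array). Each array's log2 intensity was shifted by its 75th percentile over probes well above background on all arrays, because under 50% of spots were detected on most arrays. The fit (limma 3.58.1, R 4.3.3, two-sided, Benjamini-Hochberg at 0.05 over the whole table) took the 17765 probes detected throughout at least 1 group. The procedure was tested on simulated data. The brightest tested probe stands for a gene. Named were all members, and of the partners those called and the 2 per role with the smallest p. NCBP2L and EIF4EBP3 had no probe of that name, and CYFIP1 and EIF4E1B no tested one. Likeness is Pearson's r with the mean of members well above background on all arrays, the 3 highest being named.

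Same-numbered arrays shared slide and scan, and their deviations from group means correlated at 0.84, 0.39 and 0.77, so the numbers pair the arrays. Slide, scan and preparation cannot be told apart. Alternatives were other scalings, normexp (offset 50), the authors' table, 2 other filters, the replicate block, array weights, pairs 1 and 3 alone, leaving out each array, the mean of a gene's probes and another detection call. The number of arrays limits the precision. Some lineage markers are not reported here.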

Additional observations from a re-analysis of the deposited data

How the results depend on the processing

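Member probes called were 0 under every alternative except replicates 1 and 3 with the replicate block, where they were 2 and all probes called 613. The replicate block on all arrays left the member calls at 0 and all probes called at 1, and changed no other call. All probes called were 0 with normexp, the authors' table, no filter and the filter on all 6 arrays (1, 10, 160 and 2 probes in limma at an unadjusted p under 0.05), and 0 to 1 when 1 array was left out, the 0 being without mock replicate 2 (1 probe at that p). Partner genes called stayed at 0 throughout. Of 142 values for the 9 genes, 134 kept their direction and 8 reversed: with normexp RNGTT was at 0.37, NCBP1 at 0.44, NCBP2 at 0.28, EIF4E at 0.091 and SNUPN at 0.54, in pairs 1 and 3 alone EIF4E2 was at 0.028, and NCBP1 ran from -0.75 to 0.056 when 1 array was left out. The median of all probes was then 0.47 with normexp, -0.26 with quantile normalization and -0.21 with the authors' table; the cause was not tested. By the detection call for positive and significant spots, 10 member probes in place of 4 passed on all arrays. PHAX stayed lower throughout, between -2.11 (without mock replicate 1) and -0.62 (without NUDT16 replicate 1), RNMT between -3.41 and -0.50, and TGS1 between -1.59 and -0.33.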
